A study of Mus musculus with 2 samples.

Results

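The integrated stress response and the unfolded protein response of the endoplasmic reticulum (ER) were followed through 8 genes, Atf4, Ddit3, Trib3, Nupr1, Xbp1, Hspa5, Hsp90b1 and Pdia4, in single cells of mouse tumours. The genes were chosen by name, but with earlier results of these data known, so they are not a set independent of the data. All 8 were among the 9127 gene symbols listed in both deposited tables of UMI counts (unique molecular identifiers, each counting 1 captured RNA molecule). The 2 libraries were Cdh5-cre Myct1 fl/fl (called the knockout here) and WT, both from tumours of C57BL/6 mice, and each library pooled the tumours of 4 mice. In the knockout, Cre recombinase is driven by the promoter of Cdh5, the endothelial cadherin gene, and acts on a floxed Myct1. The driver is written Cdh-cre in the sample labels, and Cdh5-cre, the spelling of the series title, is used here. No source used here gives the tumour model, the sex and age of the mice or any sorting. Both samples are labelled as endothelial cells, yet most cells fell outside an endothelial marker gate, and the genes were therefore read in 4 classes of cells gated on markers. With 1 library per genotype there is no replicate: no test was possible, every interval covers counting error only, and genotype cannot be told apart from library, pool of mice or batch.

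When unfolded proteins collect in the ER, or when amino acids run short, kinases phosphorylate the translation factor eIF2 alpha, most translation slows, and Atf4 mRNA is translated more. ATF4 then switches on genes of amino acid supply and, with lasting stress, Ddit3 and Trib3. In parallel the ER sensors IRE1 and ATF6 act through spliced Xbp1 and cleaved ATF6 to raise ER chaperones such as Hspa5, Hsp90b1 and Pdia4. ATF4 is controlled largely at translation and XBP1 by splicing, neither of which a count of 3′ ends of mRNA measures.

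Promoters of ER chaperone genes can carry a known element through which ATF6 and XBP1 act, the ER stress element (ERSE, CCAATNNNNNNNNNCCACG, where N is any base). ATF4 binds C/EBP-ATF elements, searched here as TGATGNAA. The 8 genes lie on chromosomes 15 (Atf4), 10 (Ddit3 and Hsp90b1), 2 (Trib3 and Hspa5), 7 (Nupr1), 11 (Xbp1) and 6 (Pdia4). Both elements were searched on both strands of the RefSeq promoter windows (GRCm38.p6), which run from 250 bases before to 50 bases after each gene's start, and all 8 genes had a window. An ERSE lay in the windows of Hspa5 and Hsp90b1 but not in that of Pdia4, and in 0.119% of 32851 windows of all genes. The Hspa5 match ran from base -65 to -47 from the start, and Hsp90b1 had matches from -212 to -194 and, on the other strand, from -107 to -89. TGATGNAA was in 3.97% of all windows, and here in those of Nupr1 (-110 to -103) and Trib3 (15 to 22), both on the other strand. The Trib3 match lies within the transcript by the RefSeq start, but upstream of the gene in the GENCODE annotation. The XBP1 element TGACGTGG, present in 0.676% of all windows, was in none of the 8. A match is a description of letters and no evidence of binding. The sequences below show where the matches lie, in capitals, on the gene's strand; the first pair are the 250 bases before the start of chr2:34771840-34772089 (plus strand) and chr10:86705445-86705694 (minus strand), and the second pair are 30 bases of chr7:126625562-126625591 and chr2:152344028-152344057 (both minus strand).
Hspa5: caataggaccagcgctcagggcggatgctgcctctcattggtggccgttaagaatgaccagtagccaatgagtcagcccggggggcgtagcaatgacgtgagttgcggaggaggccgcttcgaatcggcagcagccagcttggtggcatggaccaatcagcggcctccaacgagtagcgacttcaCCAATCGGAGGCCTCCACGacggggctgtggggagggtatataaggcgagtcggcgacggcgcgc
Hsp90b1: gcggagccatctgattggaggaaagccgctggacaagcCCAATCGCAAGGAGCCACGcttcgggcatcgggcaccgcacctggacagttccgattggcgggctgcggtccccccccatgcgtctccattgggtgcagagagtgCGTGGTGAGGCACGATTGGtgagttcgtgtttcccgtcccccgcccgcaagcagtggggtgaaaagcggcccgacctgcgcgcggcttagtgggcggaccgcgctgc
Nupr1: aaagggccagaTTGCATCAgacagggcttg
Trib3: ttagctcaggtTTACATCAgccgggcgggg

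The knockout table held 145331950 UMIs over 10700 barcodes and that of WT held 115519153 UMIs over 10880 barcodes, and 8096 knockout and 7903 WT cells passed the filters. Cells positive for the simple epithelial keratins Krt8 and Krt18 numbered 6449 in the knockout and 3310 in WT, endothelial cells 301 in the knockout and 531 in WT, mural cells (pericytes and vascular smooth muscle) 27 in the knockout and 96 in WT, and fibroblasts 178 in the knockout and 2901 in WT. The classes held their markers: 12 endothelial genes summed to 7704 counts per 1000000 counts (CPM) in knockout and 11048 CPM in WT endothelial cells, against 64.1 CPM in knockout and 67.3 CPM in WT keratin positive cells. The mural class was less clean, with 3019 CPM of 12 fibroblast genes in the knockout and 7874 CPM in WT. Myct1 was listed in the WT table, with 947 UMIs in WT endothelial cells (243.7 CPM), and was not listed in the knockout table. Every listed gene reached 4 UMIs in some barcode, so a gene under that limit would not be listed, and no knockout level of Myct1 is given.

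The libraries shared 218 barcodes, and 195 of these passed the filters in both. In 52 cases the same barcode fell in the fibroblast class in both libraries, which is 29.2% of the knockout fibroblasts and 1.79% of the WT fibroblasts. These 52 knockout cells had a median of 557.5 UMIs, against 12600 in the other knockout fibroblasts, and their twins in WT had a median of 615. The depths of the twins correlated with r = 0.863 on the log scale, as a description over 52 pairs, and 42 of the 52 knockout cells were more like the WT cell of their own barcode than like the WT cell of any other shared barcode. They held 1.57% of the UMIs of the knockout fibroblasts, so the ratios below barely depend on them: without shared barcodes, the log2 ratio of Nupr1 in fibroblasts was 1.33 (1.33 with them) and that of Xbp1 was -0.78 (-0.79 with them). Keratin positive cells shared 15 barcodes, endothelial cells 1 and mural cells 0.

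In Krt8/Krt18 positive cells, most of the 8 genes were lower in the knockout library, and Nupr1 was higher. Ddit3, Trib3, Atf4, Hspa5 and Xbp1 were at least 1.5-fold lower and Nupr1 was 2.01-fold higher, so that 6 of 8 passed 1.5-fold (1 higher, 5 lower). Among all 8769 genes with at least 20 UMIs in these cells, 24.4% passed 1.5-fold, 6.51% higher and 17.8% lower. Since more genes lay below than above, the median gene had a log2 ratio of -0.22. The median of the 8 genes was -0.65. All log2 ratios are of knockout over WT CPM of the summed counts, with exact 95% intervals.

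Atf4, the transcription factor at the centre of the integrated stress response, had 224.9 CPM in knockout and 369.3 CPM in WT keratin positive cells, a log2 ratio of -0.72 (-0.74 to -0.69). Ddit3, which encodes CHOP, a factor linked to cell death under lasting ER stress, had 83.0 CPM in the knockout and 173.8 CPM in WT (-1.07, interval -1.11 to -1.02). It stood at percentile 3.20 of all genes tested in these cells. Trib3, a pseudokinase induced by ATF4 and CHOP that dampens ATF4 activity, had 17.6 CPM in the knockout and 35.6 CPM in WT (-1.02, interval -1.11 to -0.93). These 3 genes of the same branch were all lower in the knockout, and the intervals did not overlap between libraries.

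Nupr1, a small stress-induced nuclear protein of the ATF4 branch, went the other way, with 1534 CPM in knockout and 762.4 CPM in WT keratin positive cells (log2 ratio 1.01, interval 0.99 to 1.02, percentile 98.8). The gap was present across cells and did not rest on a few of them. After each cell was thinned to 5000 UMIs, the 10th percentile, median and 90th percentile of Nupr1 were 1, 5 and 18 UMIs in the knockout and 0, 2 and 9 UMIs in WT. Cells with at least 20 Nupr1 UMIs of 5000 made up 8.95% of 6226 knockout cells and 1.98% of 2975 WT cells. The variance of Nupr1 among cells was 12.1 times its mean in the knockout and 7.11 times in WT, where a count with no spread beyond sampling gives a value near 1.

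Of the ER branch, Hspa5, the main ER chaperone (BiP), had 657.5 CPM in knockout and 1042 CPM in WT keratin positive cells (-0.66, interval -0.68 to -0.65). Xbp1, the transcription factor activated by IRE1, had 73.6 CPM in the knockout and 113.9 CPM in WT (-0.63, interval -0.68 to -0.58). Hsp90b1, the ER chaperone GRP94, was closer between libraries, at 773.9 CPM in the knockout and 958.1 CPM in WT (-0.31, interval -0.32 to -0.29), and stood at percentile 43.0 of all genes. Pdia4, an ER protein disulfide isomerase, was at 110.1 CPM in the knockout and 107.8 CPM in WT (0.03, interval -0.02 to 0.08). The ER genes therefore spanned a range of ratios, with Xbp1 and Hspa5 lower and Pdia4 within counting error.

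**Figure D1:**
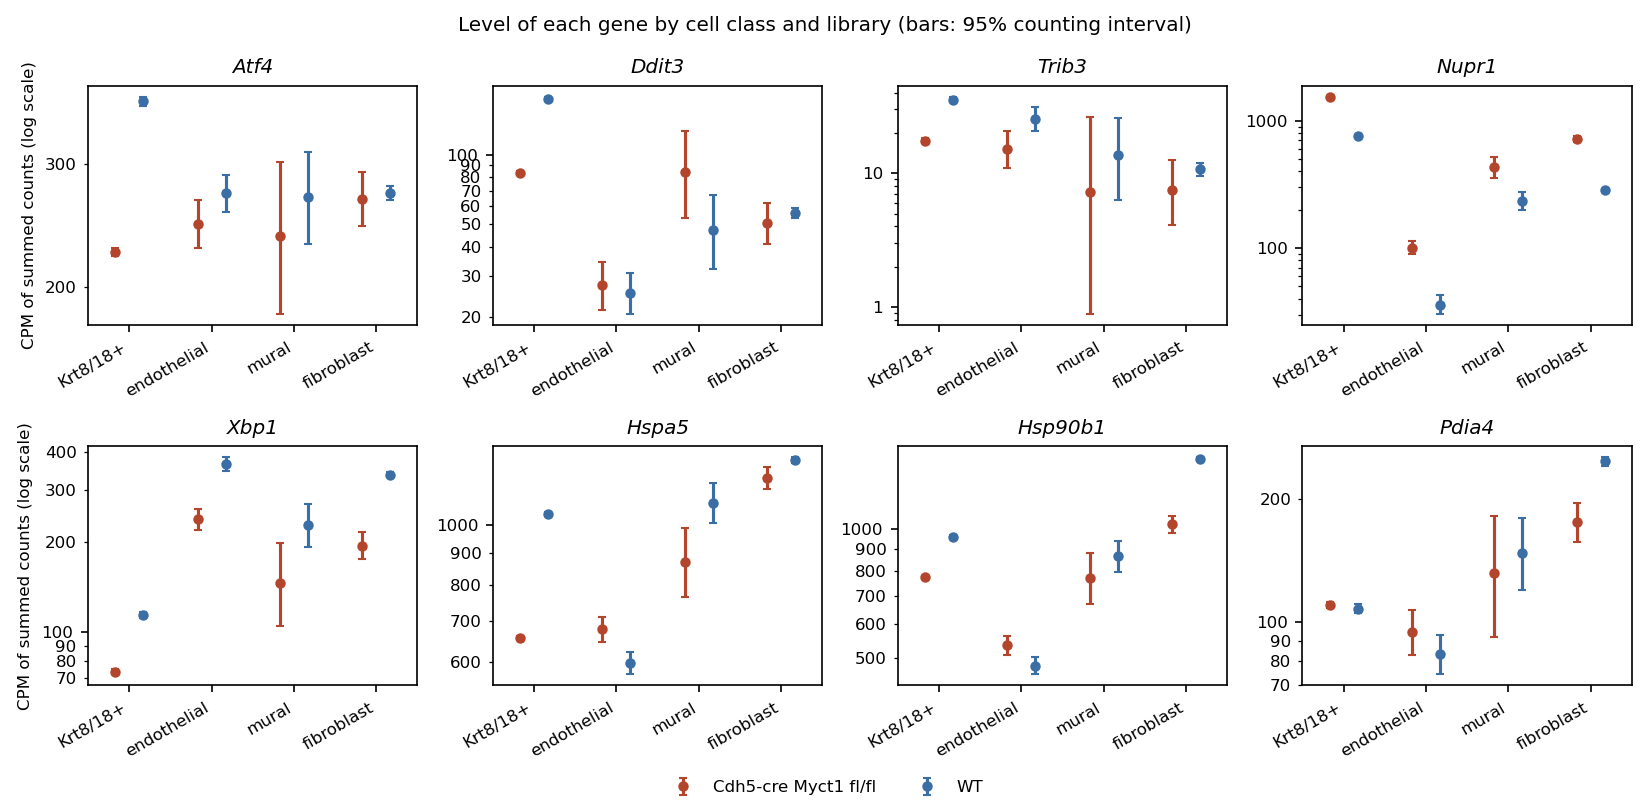
Level of each of the 8 genes (CPM of summed counts, log axis) in Krt8/Krt18 positive, endothelial, mural and fibroblast cells, with the Cdh5-cre Myct1 fl/fl library left of WT and bars for the exact 95% counting interval. Xbp1 is lower in the knockout in each class and highest in endothelial cells of both libraries. With a stricter gate, knockout Xbp1 is 241.1 CPM in endothelial cells and 245.7 CPM in fibroblasts. Nupr1 is higher in the knockout, with the mural value dependent on the gate (0.10 with a stricter one). The knockout endothelial Nupr1 value is within what free RNA could give when judged by Spp1, but not when judged by Krt8 and Krt18.

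The scale of the libraries bears on these ratios. Centring on the median gene moves the keratin positive values up by 0.22, and TMM scaling by 0.21. Under TMM, Ddit3 (-0.86), Trib3 (-0.81) and Nupr1 (1.22) stayed past 1.5-fold while Atf4 (-0.51), Hspa5 (-0.46) and Xbp1 (-0.42) did not, so 3 of 8 passed. Ratios also moved with transcript length: over 10 bins of equal size, the median was 0.33 in the bin of shortest genes and -0.43 in that of the longest. Length was that of the longest annotated transcript of a gene, which need not be the form that was captured. By this measure Ddit3 was the shortest of the 8 (969 bases), and relative to genes of like length its log2 ratio was -1.40. Nupr1 was placed at 2449 bases, but its annotated gene reaches upstream of the RefSeq start used above. Its ratio of 1.17 relative to genes of like length depends on that placement. On the same basis Hspa5 was at -0.33, no longer past 1.5-fold, and Hsp90b1 at -0.07.

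In endothelial cells, the class in which the Cre driver acts, Nupr1 was higher and Trib3 and Xbp1 were lower, the same signs as in keratin positive cells, and the other 5 genes stayed within 1.5-fold (1 higher and 2 lower of 8). Of 8213 genes tested there, 47.5% passed 1.5-fold, 11.5% higher and 36% lower, and the median log2 ratio was -0.33. The 3 of 8 members past 1.5-fold are thus a share under that of all genes. Counts were far smaller in this class, with 301 knockout and 531 WT cells.

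Ddit3 was low in endothelial cells, at 27.4 CPM (72 UMIs) in the knockout and 25.3 CPM (97 UMIs) in WT, a log2 ratio of 0.12 (-0.34 to 0.57). Its ratio in keratin positive cells lay outside that interval. Atf4 had 246.7 CPM in the knockout and 272.7 CPM in WT (-0.14, interval -0.29 to -0.0019), and Trib3 had 15.2 CPM (40 UMIs) in the knockout and 25.5 CPM (98 UMIs) in WT (-0.75, interval -1.32 to -0.20). Nupr1 had 100.9 CPM in knockout and 36.0 CPM in WT endothelial cells (1.49, interval 1.19 to 1.80). Of its 265 knockout UMIs, 1 cell held 70, and without the highest cell of each library the ratio was 1.18.

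Judged by Spp1, the knockout endothelial Nupr1 level was within what free RNA could give, whereas judged by Krt8 and Krt18 it was above that. Spp1, an abundant transcript of the keratin positive cells, was at 8.42% of its keratin positive level in knockout endothelial cells and at 1.98% in WT. The same share of Nupr1 would be 129.2 CPM in the knockout and 15.1 CPM in WT. Spp1 is not particular to keratin positive cells: fibroblasts held 4912 CPM in the knockout and 1474 CPM in WT. Keratin positive cells held 1867 CPM in the knockout and 844.7 CPM in WT. How much of the 100.9 CPM of the knockout came from endothelial cells was not tested, and it is not read as their expression level. After subtraction of the Spp1 share, Nupr1 was at 0 CPM in knockout and 20.9 CPM in WT endothelial cells. Judged by Krt8 and Krt18, which the gate itself limits, the shares were 2.07% in the knockout and 1.01% in WT, which would give 31.8 CPM of Nupr1 in the knockout and 7.68 CPM in WT. In the knockout, 25.5% of the endothelial Ddit3 level would be covered by the Spp1 share, and the Ddit3 ratio after subtraction was -0.10.

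Xbp1 was highest in endothelial cells among the 4 classes, at 238.3 CPM in the knockout and 365.5 CPM in WT, a log2 ratio of -0.62 (-0.76 to -0.48). This was 3.24 times the keratin positive level in the knockout and 3.21 times in WT. With a stricter gate, knockout Xbp1 was 241.1 CPM in endothelial cells and 245.7 CPM in fibroblasts, so its first place in the knockout depended on the gate. The chaperones were slightly higher in knockout endothelial cells: Hspa5 had 678.8 CPM in the knockout and 597.3 CPM in WT (0.18, interval 0.09 to 0.27), and Hsp90b1 536.4 CPM in the knockout and 480.5 CPM in WT (0.16, interval 0.06 to 0.26). Pdia4 had 94.4 CPM in the knockout and 83.2 CPM in WT (0.18, interval -0.06 to 0.43). All 3 chaperone ratios lay above the median gene of the class. Under TMM they were 0.50 for Hspa5, 0.48 for Hsp90b1 and 0.50 for Pdia4, whereas Xbp1 (-0.30) and Trib3 (-0.43) no longer passed 1.5-fold. After subtraction of free RNA, Hspa5 was at 0.11, Hsp90b1 at 0.03 and Pdia4 at 0.07.

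**Figure D2:**
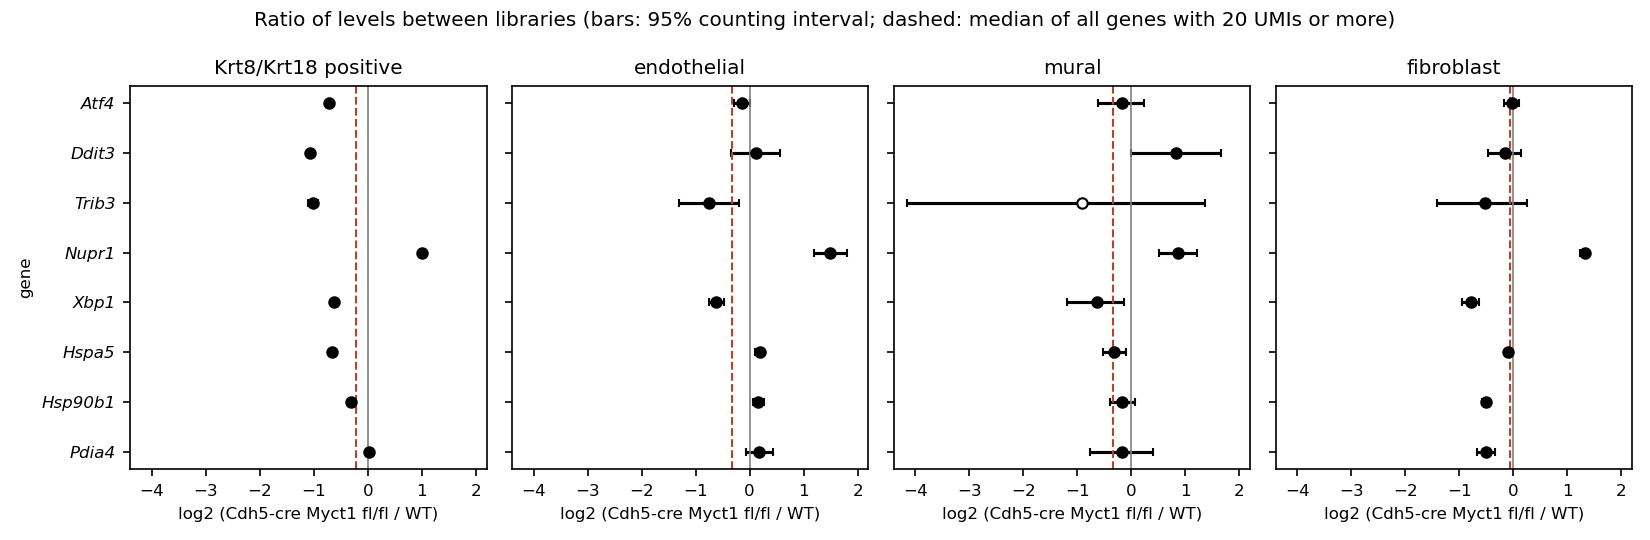
Log2 ratio of Cdh5-cre Myct1 fl/fl over WT for each gene in each class, with exact 95% counting intervals, a grey line at 0 and a dashed line at the median of all genes with 20 UMIs or more. Xbp1 lies at -0.79 to -0.62 in the 4 classes and Nupr1 at 0.87 to 1.49, although mural Nupr1 is at 0.10 with a stricter gate. Under TMM, Xbp1 is within 1.5-fold in keratin positive (-0.42), endothelial (-0.30) and mural cells (-0.32). In fibroblasts it is -0.76 under TMM and -0.49 with the stricter gate. Knockout endothelial Nupr1 is within what free RNA could give when judged by Spp1, but not when judged by Krt8 and Krt18. The open point marks Trib3 in mural cells, with 11 UMIs in all.

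Mural cells gave the widest intervals, with 27 knockout and 96 WT cells. Of the 7 members with at least 20 UMIs, Nupr1 and Ddit3 were at least 1.5-fold higher and Xbp1 lower, beside 49.4% of 6013 genes past 1.5-fold, 10.6% higher and 38.8% lower. Nupr1 had 430.8 CPM in the knockout and 235.8 CPM in WT (0.87, interval 0.51 to 1.22), and Xbp1 146.0 CPM in the knockout and 228.2 CPM in WT (-0.64, interval -1.19 to -0.13). Mural Xbp1 was -0.54 with a stricter gate and -0.32 under TMM, within 1.5-fold in each case. Krt8 and Krt18 summed to 182.5 CPM in knockout and 9.13 CPM in WT mural cells, and the same share of Nupr1 would be 165.7 CPM in the knockout and 4.89 CPM in WT. With a stricter gate Nupr1 had 256.8 CPM in the knockout and 238.8 CPM in WT, a log2 ratio of 0.10, so its place past 1.5-fold in mural cells depended on the gate. The Ddit3 value of 84.0 CPM rested on 23 UMIs in the knockout, 10 of them in 1 cell, against 47.2 CPM and 31 UMIs in WT (0.83, interval -0.01 to 1.66). Without the highest cell of each library it was 0.37, so no difference was detectable at this depth. Atf4 (-0.18), Hspa5 (-0.31), Hsp90b1 (-0.17) and Pdia4 (-0.17) stayed within 1.5-fold, and Trib3 had 2 UMIs in the knockout and 9 in WT.

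In fibroblasts, Nupr1 was higher and Xbp1 lower in the knockout, and the other 6 genes stayed within 1.5-fold. The 2 of 8 past 1.5-fold compare with 40.5% of 8831 genes, 20% higher and 20.5% lower, and with a median gene at -0.06. Nupr1 had 717.8 CPM in the knockout and 285.8 CPM in WT (1.33, interval 1.24 to 1.41). Xbp1 had 194.5 CPM in the knockout and 336.2 CPM in WT (-0.79, interval -0.94 to -0.64). Fibroblast Xbp1 was -0.76 under TMM, but -0.49 with the stricter gate, within 1.5-fold. Hspa5 was nearly level, with 1192 CPM in the knockout and 1274 CPM in WT (-0.10, interval -0.16 to -0.03). Hsp90b1 had 1025 CPM in the knockout and 1454 CPM in WT (-0.50), and Pdia4 175.3 CPM in the knockout and 247.5 CPM in WT (-0.50). Atf4 (-0.03), Ddit3 (-0.15) and Trib3 (-0.52, from 14 knockout UMIs) had intervals that included 0.

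The fibroblasts of the libraries were not alike in other genes. Dcn, a proteoglycan of fibroblasts, had 2476 CPM in knockout and 5555 CPM in WT fibroblasts, and Pi16, a marker of adventitial fibroblasts, 323.4 CPM in the knockout and 2713 CPM in WT. Spp1 had 4912 CPM in the knockout and 1474 CPM in WT, and Krt8 and Krt18 together 140.6 CPM in the knockout and 32.1 CPM in WT. The summed 12 fibroblast markers were 32084 CPM in the knockout and 56366 CPM in WT. The part of this difference in makeup in the Nupr1 and Xbp1 ratios was not tested.

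The order of classes differed by gene. With the main gate, Nupr1 followed keratin positive, fibroblast, mural and endothelial cells in that order in both libraries, with no overlap of neighbouring counting intervals. It spanned 15.2-fold in the knockout and 21.2-fold in WT. With the stricter gate, WT fibroblasts (225.5 CPM) lay below WT mural cells (238.8 CPM), so the order of these classes in WT depended on the gate. Xbp1 followed endothelial, fibroblast, mural and keratin positive cells in both, though fibroblasts and mural cells overlapped in the knockout. With the stricter gate, knockout fibroblasts (245.7 CPM) were slightly above knockout endothelial cells (241.1 CPM). Hspa5, Hsp90b1 and Pdia4 were highest in fibroblasts in both libraries, with mural cells overlapping for Pdia4 in the knockout. Ddit3 was highest in keratin positive cells in WT, 6.87 times the endothelial level, whereas in the knockout mural and keratin positive cells overlapped. Atf4 was the flattest of the 8, with the highest class 1.19 times the lowest in the knockout and 1.37 times in WT.

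Summed over all cells that passed the filters, the ratios mix genes and cell makeup. Xbp1 had a log2 ratio of -1.23 over all kept cells, 81.2 CPM in the knockout and 190.7 CPM in WT, which is beyond its ratio in each of the 4 classes. The knockout library held 79.7% keratin positive cells, the class with least Xbp1, and WT held 41.9%. Ddit3, by contrast, was at -0.63 over all kept cells, closer to 0 than the -1.07 of keratin positive cells.

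Within keratin positive cells, Ddit3 marked cells that also held more of several other members. With each cell thinned to 5000 UMIs (223 knockout and 335 WT cells were shallower and were left out), cells with 4 or more Ddit3 UMIs made up 1.12% (0.878 to 1.42) in the knockout and 5.51% (4.72 to 6.39) in WT. Against cells with no Ddit3, those cells held a mean of 6.00 rather than 2.95 Hspa5 UMIs in the knockout and 8.90 rather than 4.14 in WT. Atf4 followed the same order, at 2.34 rather than 1.01 UMIs in the knockout and 2.85 rather than 1.56 in WT. Xbp1 was at 0.571 rather than 0.346 UMIs in the knockout and at 0.848 rather than 0.498 in WT. Hsp90b1 was at 4.93 rather than 3.75 UMIs in the knockout and at 7.55 rather than 4.22 in WT. Trib3 was at 0.0571 rather than 0.0779 UMIs in the knockout, from 70 cells with 4 or more Ddit3 UMIs, and at 0.299 rather than 0.143 in WT. Pdia4 was at 0.500 rather than 0.548 UMIs in the knockout and at 0.689 rather than 0.520 in WT. Nupr1 was at 6.43 rather than 7.71 UMIs in the knockout and 3.88 rather than 3.36 in WT. Median mitochondrial shares were 3.54% in the knockout and 4.14% in WT for the cells with 4 or more Ddit3 UMIs, and 4.11% in the knockout and 4.36% in WT for cells with none. Cells with no Ddit3 UMI still differed between libraries, with Hspa5 at 2.95 in the knockout and 4.14 in WT.

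**Figure D3:**
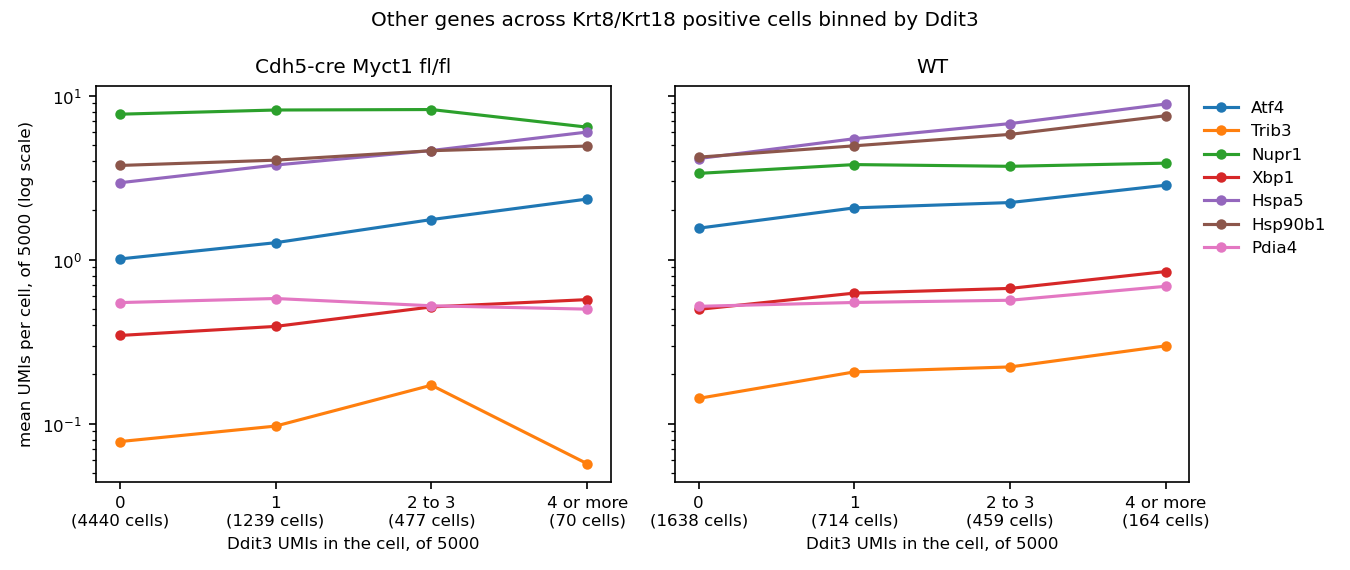
Mean UMIs per cell (of 5000, log axis) of the other 7 genes in Krt8/Krt18 positive cells binned by their Ddit3 UMIs, knockout at left and WT at right, with cells per bin under the axis. Hspa5 and Atf4 are higher in each bin with more Ddit3 in both libraries, and Nupr1 spans 6.43 to 8.23 in the knockout and 3.36 to 3.88 in WT; the last knockout bin has 70 cells.

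Leaving out cells with more than 4 Ddit3 UMIs per 10000, chosen after the data were seen, brought the Ddit3 log2 ratio in keratin positive cells to -0.65, and left those of Atf4 at -0.68 and Hspa5 at -0.56. Across cells the members were only loosely tied, as a description of sparse counts from cells that share a library. Hspa5 and Hsp90b1 had the highest Pearson r of the 28 pairs, 0.292 in the knockout (6226 cells) and 0.487 in WT (2975 cells). Ddit3 had r = 0.175 with Hspa5 in the knockout and 0.297 in WT, and Nupr1 stayed between -0.06 and 0.08 with every other member. The genes most like Ddit3 were 2410006H16Rik, Ero1l, Ndrg1, Snhg1 and Gas5 (r between 0.20 and 0.21 in the knockout, and 0.232 to 0.339 in WT, among 6525 genes). Those most like Hspa5 were Ero1l, Cd44, Hspa9, Slc2a1 and Calr, with r of 0.22 to 0.257 in the knockout and 0.229 to 0.416 in WT. Ero1l, an ER oxidase that helps form disulfide bonds, was on both lists.

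Beyond the 8 genes, 33 further genes of the integrated stress response and 36 further ER chaperones and unfolded protein response genes were counted. Slc7a3, Eif2ak3, Derl3 and Ero1lb were not listed in both tables. The stress response list is called targets below, but it also holds upstream genes of the pathway, such as Eif2s1 and the eIF2 kinase gene Eif2ak4. In keratin positive cells, 2 of 30 tested stress response targets passed 1.5-fold upward and 8 downward, and 4 of 34 ER genes passed upward and 8 downward. These shares, 6.67% and 11.8% upward and 26.7% and 23.5% downward, stood beside 6.51% upward and 17.8% downward for all genes. The median log2 ratios were -0.24 for the stress response targets and -0.23 for the ER genes, both close to the -0.22 of all genes. Vldlr, a lipoprotein receptor (-1.27), Stc2, a secreted glycoprotein (-1.09), and the cystine transporter Slc7a11 (-0.99) were the lowest stress response targets. The stress factor Atf3 was higher, at 202.3 CPM in the knockout and 110.2 CPM in WT (0.88). Asns, asparagine synthetase, a standard ATF4 target, had 103.1 CPM in the knockout and 132.7 CPM in WT (-0.36). On the ER side, Ero1l (-1.13), the chaperone Hyou1 (-0.98) and the lectin chaperone Canx (-0.69) were lowest, while Fkbp11 (0.89), Ostc (0.69) and Ppib (0.66) were highest.

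In endothelial cells 6 of 29 stress response targets were higher (20.7%) and 6 lower (20.7%), and 11 of 34 ER genes were higher (32.4%) and 6 lower (17.6%). The stress response counts include the upstream genes Eif2s1 (1.02) and Eif2ak4 (-1.11). Of all genes tested there, 11.5% were higher and 36% lower. The medians were -0.18 for the stress response targets and 0.10 for the ER genes, beside the -0.33 of all genes. Ratios moved with transcript length here too, with a median of 0.41 in the bin of shortest genes and -0.75 in that of the longest. The same span was 0.32 to -0.73 in mural cells and 0.57 to -0.26 in fibroblasts. The list shares and medians take no account of length, and its part in them was not tested. Atf3 was at 622.8 CPM in knockout and 296.4 CPM in WT endothelial cells (1.07). Slc7a5, a neutral amino acid transporter (-1.46), Sesn2 (-1.40) and Chac1 (-1.15) were lower, and Eif2s1, the alpha subunit of eIF2 (1.02), and Eif4ebp1 (0.93) were higher. Among ER genes, Fkbp11 (1.58), Sdf2l1 (1.52) and Creld2 (1.28) were higher, each from 90 to 113 knockout UMIs, while Syvn1 (-0.95), Fkbp14 (-0.95) and Hyou1 (-0.93) were lower. The list of 8 genes that respond to tissue dissociation summed to 5121 CPM in knockout and 5279 CPM in WT endothelial cells, and to 4870 CPM in knockout and 4304 CPM in WT keratin positive cells. It summed to 7239 CPM in knockout and 6897 CPM in WT mural cells, and to 8612 CPM in knockout and 12130 CPM in WT fibroblasts. Its single genes had log2 ratios of -0.41 to 0.77 in keratin positive, -0.42 to 1.40 in endothelial, -0.31 to 0.65 in mural and -1.245 to 1.35 in fibroblast cells. In keratin positive cells 2 of 8 (25%) passed 1.5-fold upward, beside 6.51% of all genes. In endothelial cells 2 of 8 (25%) did, beside 11.5%. The part of this list in the ratios was not tested.

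In mural cells 2 of 22 stress response targets were higher and 3 lower (median -0.22), and 5 of 33 ER genes were higher and 6 lower (median -0.07). The shares higher, 9.09% and 15.2%, stood beside 10.6% of all genes, and the shares lower, 13.6% and 18.2%, beside 38.8%, with an all-gene median of -0.34. Slc7a5 had 3 UMIs in knockout and 64 in WT mural cells (-3.15), and Ero1l had 182.5 CPM in the knockout and 50.2 CPM in WT (1.86). Slc3a2 (-0.96), Shmt2 (-0.67), Sel1l (-1.32), Ssr1 (-1.12) and Herpud1 (-1.09) were the other named genes that were lower. Atf3 (0.71), Eif2s1 (0.62), Manf (0.73) and Fkbp2 (0.68) were higher. In fibroblasts 10 of 31 stress response targets were higher and 4 lower (32.3% and 12.9%, median 0.34), and 6 of 34 ER genes were higher and 3 lower (17.6% and 8.82%, median -0.11). All genes tested there had 20% higher and 20.5% lower and a median of -0.06, so the ER share higher was near that of all genes. Fgf21, a stress hormone, had 28.9 CPM (54 UMIs) in knockout and 5.76 CPM (157 UMIs) in WT fibroblasts (2.33). Phgdh, the entry enzyme of serine synthesis (0.94), and Mthfd2, a mitochondrial folate enzyme (0.88), were higher as well, and Vldlr (-1.41) and Stc2 (-1.14) were lower. Gdf15, a stress cytokine, had 0 UMIs in the knockout and 112 UMIs in WT (4.11 CPM), which is at least 2.56-fold lower at a floor of 3 counts over the knockout class. Creld2 (0.99), Manf (0.94) and Fkbp11 (0.87) were the highest ER genes, and Fkbp14 (-0.91), Hyou1 (-0.66) and Sel1l (-0.60) the lowest. Hyou1 was lower in knockout keratin positive, endothelial and fibroblast cells alike.

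**Figure D4:**
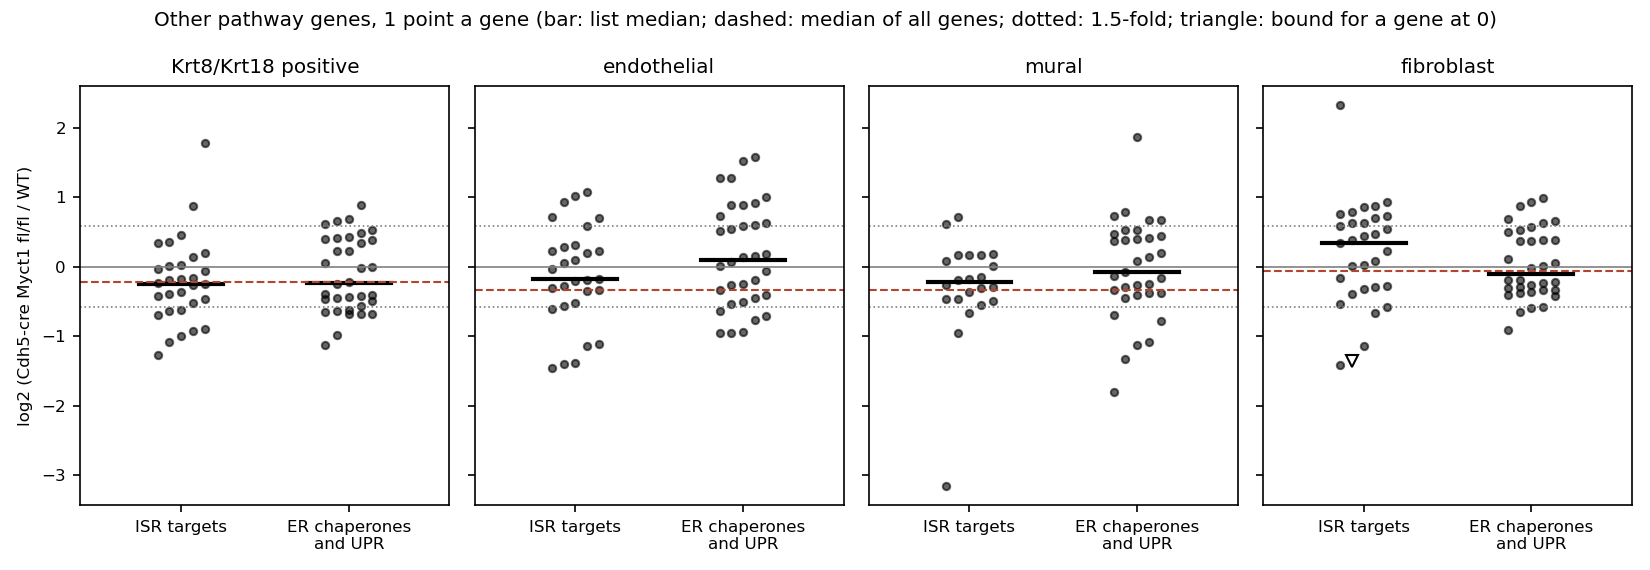
Log2 ratio of Cdh5-cre Myct1 fl/fl over WT for the other integrated stress response (ISR) genes, labelled ISR targets, and ER genes with 20 UMIs or more in each class, 1 point a gene, with list medians as bars, the median of all genes dashed and 1.5-fold dotted. The ER list median lies at 0.10 in endothelial cells, above the -0.33 of all genes, and the triangle is Gdf15 in fibroblasts at its bound.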

How the data were processed

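The authors deposited 1 table of whole UMI counts per library, with no normalization; per the submitters' processing notes, Cell Ranger 2.1.1 and the mm10 build were used, and no source used here gives the annotation release. Per the labels' protocols, tumours were digested with collagenase, dispase and DNase and libraries made with a 10x 3′ kit. Both tables hold only genes with a maximum of 4 UMIs or more in a barcode.

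Barcodes with at least 200 genes, at most 10% mitochondrial UMIs and a Scrublet score of at most 0.3 (scanpy 1.11.5, expected doublet rate 8%) were kept; 126 knockout cells (1.53%) and 217 WT cells (2.67%) were left out as doublets. Classes were gated on marker detection: at least 4 of 12 endothelial or mural markers, or 5 of 12 fibroblast markers, more than of the other lists, with Krt8 plus Krt18 under 500 CPM; keratin positive cells had both keratins, at least 200 CPM in sum, and under 3 endothelial or mural markers. Cells with 3 or more immune markers were put in no class. The 1141 knockout and 1065 WT cells outside all gates, these included, entered only the sums over all kept cells. Counts were summed per class and library and scaled to CPM of the symbols listed in both tables. Levels carry exact Poisson intervals, shares exact binomial ones and ratios exact conditional binomial ones, all at 95%. A gene was compared at 20 or more UMIs over both libraries, and called higher or lower past 1.5-fold, with no test. From each pathway list and class, up to 3 genes in each direction with at least 50 UMIs are named; Asns was added after its values were seen. The members and lists were chosen with earlier results of these data known, and the doublet rate was set after the default rate marked under 0.5% of the knockout cells. Alternatives covered doublets, the mitochondrial limit, gates, scaling (TMM from edgeR 4.0.16), transcript length and free RNA. Counting was tested on simulated data with known ratios. No source used here says whether counting used strand; Ddit3 overlaps the opposite-strand gene Mars, and Hsp90b1 the opposite-strand pseudogene 1810014B01Rik, so reads of either partner could be mixed. The other tools were scipy 1.17.1, pandas 2.3.3, numpy 2.4.6 and matplotlib 3.10.9 in Python 3.11.15.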

Additional observations from a re-analysis of the deposited data

Results flagged for a closer look

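Hspa5 and Hsp90b1 had log2 ratios of opposite sign in endothelial cells and in other classes, with counting intervals that excluded 0 on both sides; with 1 library per genotype the difference between classes was not tested. The endothelial ratio of Hspa5 exceeded that of keratin positive cells by 0.85, that of mural cells by 0.50 and that of fibroblasts by 0.28. For Hsp90b1 the gap was 0.47 to keratin positive cells and 0.66 to fibroblasts. Under TMM scaling the ratios stayed opposite in sign between endothelial and keratin positive cells (0.50 and -0.46 for Hspa5, 0.48 and -0.10 for Hsp90b1), and the mural Hspa5 ratio became 0.0145. Against genes of like length the Hspa5 ratios of mural cells (0.10) and fibroblasts (0.06) took the endothelial sign, and fibroblast Hspa5 was 0.13 with the stricter gate. Endothelial Hsp90b1 was 0.03 after subtraction of free RNA.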

How the results depend on the processing

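No paired analysis was possible because each genotype had 1 library. In keratin positive cells the median log2 ratio of the 8 genes, -0.65, was -0.61 with the gate on thinned counts, -0.53 as a mean of per-cell CPM, -0.44 under TMM, -0.42 relative to the median gene, -0.47 against genes of like length and -0.57 without cells above 4 Ddit3 UMIs per 10000. In place of 6 genes, 3 passed 1.5-fold under TMM and relative to the median gene. As a mean of per-cell CPM 4 passed, without cells above 4 Ddit3 UMIs per 10000 also 4, and against genes of like length 5. In endothelial cells the median, 0.14, was 0.46 under TMM, 0.47 relative to the median gene, -0.10 after subtraction of free RNA and 0.47 relative to keratin positive cells; 1 gene in place of 3 passed 1.5-fold under TMM and relative to the median gene. Relative to keratin positive cells, 12 of 24 ratios changed sign: Trib3 (0.27), Xbp1 (0.0136) and Atf4 (0.57) in endothelial cells; Nupr1 (-0.14), Trib3 (0.11), Atf4 (0.53), Hspa5 (0.35) and Hsp90b1 (0.14) in mural cells; Ddit3 (0.92), Trib3 (0.50), Atf4 (0.69) and Hspa5 (0.57) in fibroblasts. In mural cells Ddit3 was -0.0763 with the stricter gate, and 1 gene in place of 3 passed 1.5-fold with the stricter gate, as a mean of per-cell CPM, relative to keratin positive cells and against genes of like length. In fibroblasts 1 gene in place of 2 passed with the stricter gate, and 4 as a mean of per-cell CPM and against genes of like length; the median, -0.32, was 0.022 with the gate on thinned counts, 0.41 relative to keratin positive cells and -0.50 against genes of like length. The causes were not tested. Centring on the median gene turned the split of all genes past 1.5-fold in keratin positive cells to 1352 higher and 567 lower, from 571 and 1565, and in endothelial cells to 1928 and 1397, from 947 and 2954. Nupr1 kept its sign in all 11 alternatives in keratin positive cells (0.90 to 1.23) and Ddit3 in all 11 in keratin positive cells (-1.40 to -0.65). The -0.65 came from leaving out cells by their own Ddit3 count. All alternatives use the same libraries and are not independent of each other. In endothelial cells the 12 alternatives with a Nupr1 ratio gave 0.48 to 2.22. Subtraction of free RNA by the Spp1 share instead left 0 CPM in the knockout and 20.9 CPM in WT, against the direction of the others. In mural cells Nupr1 was 0.10 with the stricter gate. Subtraction of free RNA was not run for mural cells and fibroblasts, where Spp1 exceeded 50% of its keratin positive level in at least 1 library.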
